A study of Mus musculus with 2 samples.

Results

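The window at chromosome 5, 119500000 to 120900000 of the mm8 build, is the region of the transcription factor genes Tbx3, Tbx5 and Lhx5. Of the 3445 peaks that the authors deposited for PHF19, 17 overlap it, and these 17 are the peaks described here. They were chosen by position from a list called on the ChIP reads themselves, so their enrichment over input is a description of the region. Counts of peaks or bins that passed a test are given only beside the same share over the whole list or genome. PHF19 is a Polycomb-like protein that associates with Polycomb repressive complex 2 (PRC2). The study sequenced 1 library of chromatin recovered from E14 mouse embryonic stem cells with a rabbit polyclonal antibody raised against PHF19, and 1 library of input DNA made without antibody. Both come from the same line, grown on gelatin in medium with the cytokine LIF, which keeps them pluripotent. With 1 library per group, no value has a replicate error, and all intervals are exact 95% intervals for counting error only, which amplified reads can make too narrow. Neither library checks the specificity of the antibody, so the values show what it recovered.

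Tbx3 and Tbx5 belong to the T-box family, whose members bind DNA through the T-box domain and direct the forming of organs in the embryo. Tbx3 acts mostly as a repressor in limb, mammary gland and heart, and it also supports self-renewal of embryonic stem cells. Tbx5 is needed in the heart and forelimb. Lhx5 is a LIM homeodomain factor of the developing forebrain and hippocampus. Genes of this kind are known targets of PRC2, which methylates histone H3 on lysine 27 and helps to keep developmental genes silent in embryonic stem cells. In the gene table of the GRCm38.p6 assembly, Tbx3, Tbx5, Rbm19 and Lhx5 follow each other among the protein-coding genes, with Med13l before Tbx3 and Sdsl after Lhx5. Rbm19 encodes an RNA-binding protein of ribosome production, Med13l a subunit of the Mediator complex. Another 11 genes between Tbx3 and Lhx5 are listed as long non-coding RNAs. This table is of another build than the reads and gave names and order only. No peak is assigned to one of these genes, since mm8 gene positions were not used here.

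The 17 peaks formed 6 groups, numbered here from the start of the window, when peaks with gaps of at most 10 kb were joined. Group 1 lay at 119923659 to 119930092 and held 2 peaks. Group 2 was a lone peak at 119947716 to 119948864. The next pair of groups were close neighbours, with 3 peaks each: group 3 at 120057773 to 120066642 and group 4 at 120091417 to 120102774. After them came the longest stretch without a peak that lies whole in the window, 460 kb from 120102775 to 120562922. Group 5, at 120562923 to 120573431, held 2 peaks. Group 6, at 120684684 to 120701883, held 6 peaks. Peaks are numbered 1 to 17 in the same order. The plot of reads along the window shows the highest rise of the ChIP library at group 6, over a level input. Not every group is a separate rise from end to end. Groups 1 and 2 run together, as described below. Group 5 held 15.9 ChIP reads per kb from end to end. At 2 to 10 kb to its left and right the density was 14.25 and 16.1 per kb. The value from end to end includes the 8.27 kb between its 2 peaks. Peaks 10 and 11 themselves held 34.5 and 35.4 ChIP reads per kb.

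**Figure D1:**
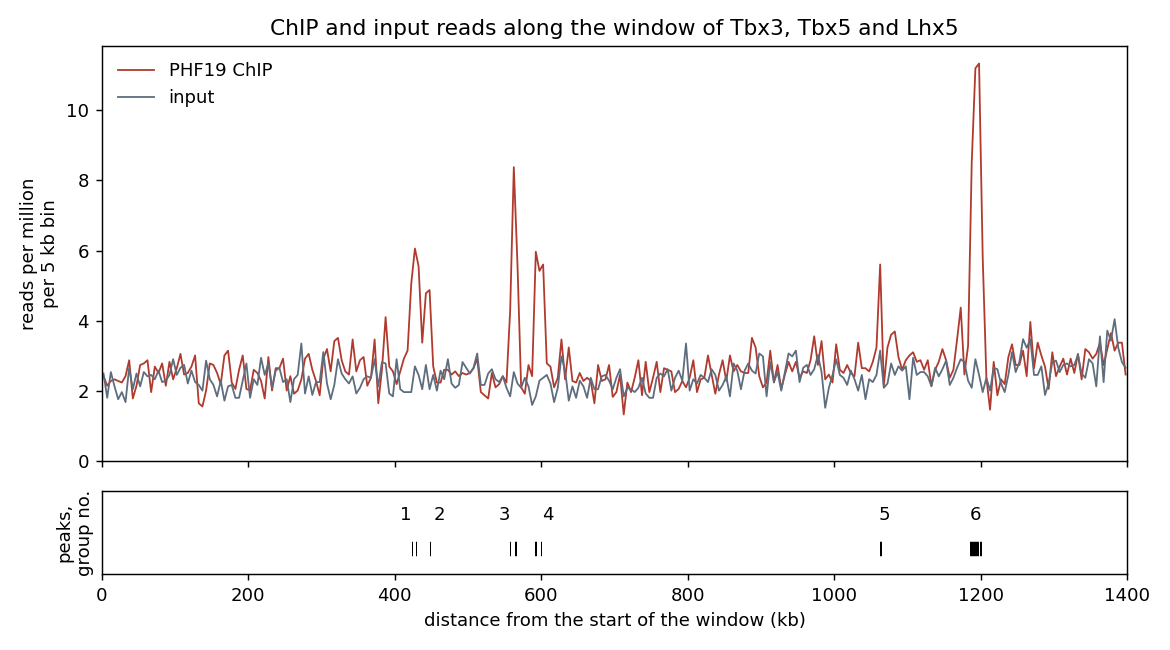
Distinct reads in 5 kb bins of the PHF19 ChIP library (red) and the input (grey), scaled to the library total as the axis states, against distance from the start of the window, with the 17 peaks and the numbers of their 6 groups below. The highest rise lies at group 6, and no rise of that kind is seen in the input.

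The peaks were crowded in this window. It held 17 peaks over 1.4 Mb, or 12.1 per Mb, against 1.5 per Mb on the rest of chromosome 5. The adjoining stretches of the same length held 4 peaks on the left and 2 on the right. Peaks covered 2.26% of the window, 0.551% of the left stretch and 0.135% of the right one. The window was picked as a place with many peaks, so this density describes the choice. Its edges fell in empty chromatin. The last peak before the window ended 152 kb to the left of it, with 15 ChIP and 3 input reads, a ratio of 5.58 (1.58 to 30.1). The first peak inside it began 424 kb from that edge, with 36 and 16 reads and a ratio of 2.51 (1.36 to 4.84). At the right edge, the last peak inside ended 198 kb short of it, with 191 and 34 reads and a ratio of 6.27 (4.33 to 9.31), and the next one outside began 55.0 kb beyond it, with 32 and 13 reads and a ratio of 2.75 (1.40 to 5.70).

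All ratios are the ChIP share over the input share of distinct reads, that is, reads counted once per position and strand and scaled by the 21957101 ChIP and 24496988 input reads so counted. The 17 peaks together held 1403 ChIP and 412 input reads over 31.7 kb, a ratio of 3.80 (3.40 to 4.25). The other 226 peaks of chromosome 5 stood at 3.91 (3.80 to 4.03), and all peaks outside the window at 3.56 (3.53 to 3.59). Taken peak by peak, the median ratio was 3.04 in the window and 3.68 outside it. The pooled ratio was therefore set by a few large peaks: group 6 alone held 53.6% of the ChIP reads in the 17 peaks. Without it, the other 11 peaks had a ratio of 3.29 (2.82 to 3.85). By the exact conditional binomial test over the whole list, with Benjamini-Hochberg adjustment and a ratio of at least 2, 17 of the 17 peaks were called higher in the ChIP, where 98.5% of all 3445 peaks were. This test compares the reads of 2 libraries and uses the contrast that chose the peaks, so nothing is read from that count.

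The peaks ranged from 762 to 6638 bp in width, with a median of 1478 bp, close to the 1425 bp of the whole list. Their authors' scores, a number that the peak caller wrote for each peak, ranged from 50.79 to 631.41. The list itself begins at 50.01, so peak 11, the one with the lowest score, was only just inside it. Of the 17, 4 (23.53%) were among the 862 peaks with the highest authors' scores, namely peaks 6, 14, 16 and 17. Those 862 made up 25.02% of the whole list, so such scores were not more frequent among the 17. Wider peaks held more ChIP reads (Spearman's rho 0.99 over 17 peaks that share both libraries). Reads were counted within the width of each peak, so this tie was largely fixed by the counting and nothing is read from it. For width and ratio the value was 0.41. The ratios of single peaks ran from 2.19 to 6.27, but counting error blurs this order. Of 136 pairs of peaks, 134 had overlapping intervals. The 2 separate pairs set peak 17 apart from peaks 8 and 10.

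**Figure D2:**
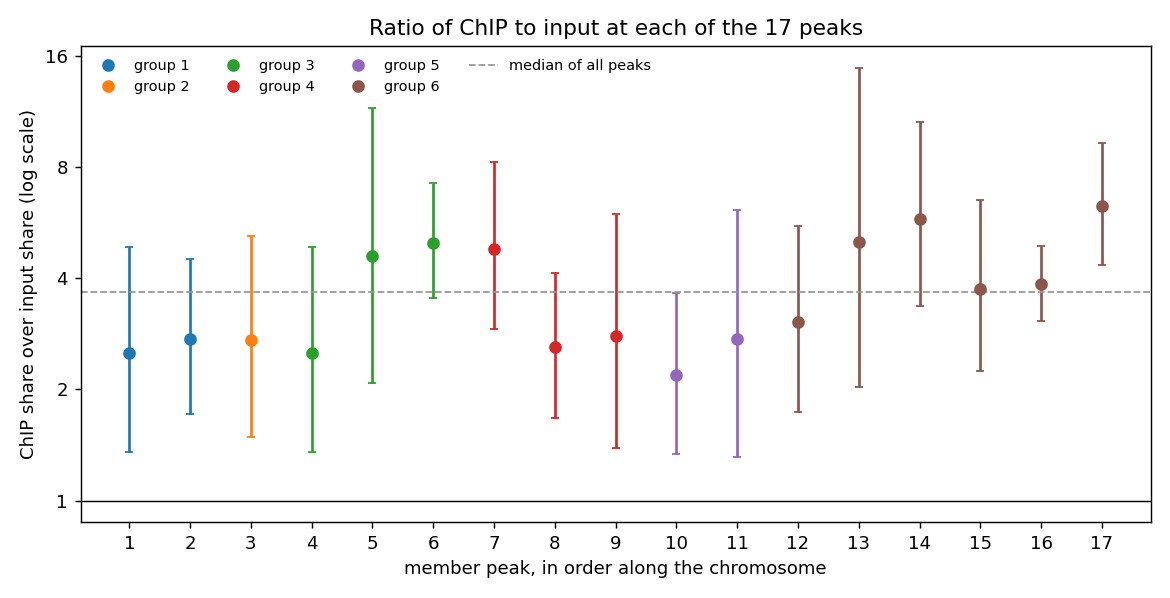
Ratio of ChIP share to input share (log scale) at each of the 17 peaks in order along the chromosome, coloured by group, with exact 95% intervals for counting error; the dashed line is the median of all 3445 peaks, 3.68. Peaks 1 to 4 and 8 to 12 lie below the dashed line and peaks 5, 6, 7 and 13 to 17 above it.

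Group 6 had the most peaks and the most ChIP reads, and its peaks lay closest together among the groups of at least 2 peaks. Its 6 peaks held 752 ChIP and 191 input reads, a ratio of 4.39 (3.74 to 5.18). They covered 91.6% of its 17.2 kb, so it was nearly 1 continuous block that the caller had divided at gaps of 39 to 530 bp. Even in these gaps, 36 ChIP reads stood against 12 input reads, a ratio of 3.35 (1.70 to 7.07). By ChIP reads in peaks it was the 22nd of all 2502 groups in the genome. The deposited list has 7 other groups of 6 peaks. Group 6 held more ChIP reads than all 7, whose counts ranged from 367 to 588, and its peaks covered a larger part of its length than theirs did (49.3% to 90.1%). Its ratio lay among theirs, which ran from 3.87 to 5.23, with 4 above it and 3 below.

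Inside group 6 the peaks were unequal. Peak 16, the widest of the 17 at 6638 bp, held 335 ChIP and 97 input reads, a ratio of 3.85 (3.07 to 4.88). It also had the highest authors' score of the 17, although 6 of the 17 peaks had larger ratios. Its neighbour, peak 17 at 120698209 to 120701883, was 3675 bp wide and had the largest ratio of the window, 6.27 (4.33 to 9.31; 191 and 34 reads). Per length, ChIP reads were about equally dense in the pair, with 50.5 per kb in peak 16 and 52.0 in peak 17, while the input was denser in peak 16, with 14.6 against 9.25 per kb. The difference in ratio thus lay in the input counts. Cut into equal parts from left to right, peak 16 had ratios of 3.40 (2.36 to 4.99), 5.21 (3.33 to 8.46) and 3.41 (2.28 to 5.22), and peak 17 had 8.93 (4.06 to 23.2), 7.91 (4.19 to 16.5) and 3.97 (2.25 to 7.42). Within each of these peaks the intervals of the parts overlap. Peak 14, at 120687153 to 120688842, had the second largest ratio, 5.79 (3.36 to 10.6; 83 and 16 reads). Peak 13, at 120685934 to 120686804, followed it with 5.02 (2.03 to 14.9), which rested on 27 and 6 reads. Peaks 12 and 15 had lower ratios, 3.04 (1.74 to 5.54; 49 and 18 reads) and 3.74 (2.24 to 6.50; 67 and 20 reads).

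Along group 6, 14 of the 18 bins of 1 kb that it touches passed the one-sided form of the exact test, adjusted over all bins of the genome, at a ratio of at least 2, where 0.157% of all bins did. All 18 touch peaks called on the same reads, so nothing is read from that count. The 5 bins with the largest ratios were spread along its length. The bin from 120700001 held 67 ChIP and 6 input reads, a ratio of 12.5 (5.43 to 35.2). The bin from 120698001 held 41 and 4 reads, a ratio of 11.4 (4.14 to 44.0). The bin from 120700001 lies within peak 17, and the bin from 120698001 begins in the gap just before that peak. Those from 120688001, 120686001 and 120694001 had ratios of 6.69 (3.14 to 16.4), 6.51 (2.71 to 18.9) and 5.83 (2.82 to 13.5). The intervals of all 5 bins overlap, and each rests on fewer than 10 input reads. The bin from 120692001 had 64 ChIP reads but also 28 input reads, the most of any bin in the group, and a ratio of 2.55 (1.61 to 4.13).

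The borders of group 6 were abrupt. In the first 2 kb to its left, 21 ChIP and 25 input reads gave a ratio of 0.937 (0.499 to 1.74). In the first 2 kb to its right, 22 and 23 reads gave 1.07 (0.567 to 2.003). Farther out, at 2 to 10 kb, the ratios were 1.12 (0.842 to 1.48) and 1.02 (0.736 to 1.41). The ChIP density thus went from 45.8 reads per kb inside the group to 10.5 and 11 per kb beside it, while the input stood at 11.8 inside and at 12.5 and 11.5 beside it. The authors' peaks end where ChIP reads fall, so part of such a drop is fixed by how the peaks were placed.

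**Figure D3:**
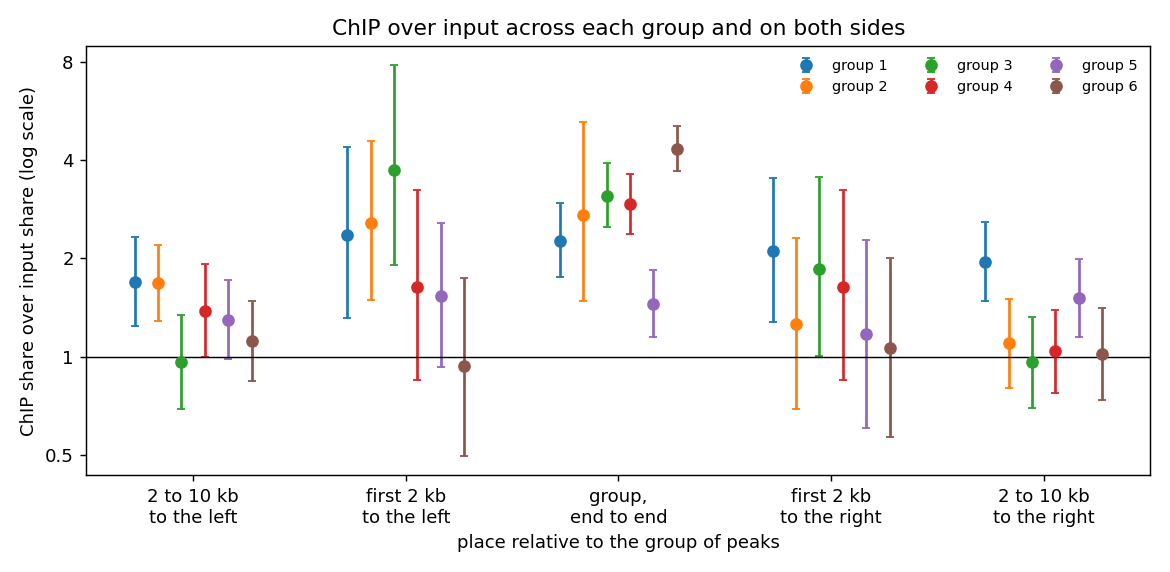
Ratio of ChIP share to input share (log scale) over each group of peaks from end to end and in the stretches to its left and right, with exact 95% intervals; the stretches to the right of group 1 and to the left of group 2 lie between these groups. Group 6 has the highest value over its length and values near 1 on each side, while group 1 stays above 1 on each side.

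Groups 1 and 2 were of another form, a long and shallow rise of which only short parts had been called as peaks. Peak 1 held 36 ChIP and 16 input reads, peak 2 held 64 and 26, and peak 3, the lone peak of group 2, held 39 and 16. Their ratios were 2.51 (1.36 to 4.84), 2.75 (1.72 to 4.51) and 2.72 (1.49 to 5.21), where 9.93% to 18.2% of the peaks in the list had lower ones, and their authors' scores of 61.55 to 97.55 were below its median of 113.6. The stretch of 17.6 kb between the groups carried no peak, yet it held 351 ChIP and 199 input reads, a ratio of 1.97 (1.65 to 2.35). All 16 whole bins of 1 kb in it had a ratio above 1, with a median of 1.70. The autosomes hold 92 other peak-free stretches of 10 to 20 kb between groups, with a median ratio of 1.24 and quartiles of 1.13 and 1.37, and only 2 of them were above this one. The comparison with them was made after the value was seen.

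Taken from end to end, groups 1 and 2 with the stretch between them spanned 25.2 kb and held 573 ChIP and 305 input reads, a ratio of 2.10 (1.82 to 2.42). That is a longer span than that of group 6, at less than its ratio of 4.33 (3.71 to 5.08) measured in the same way. The rise went on to the left of group 1, with 2.36 (1.31 to 4.38) in the first 2 kb and 1.70 (1.25 to 2.32) at 2 to 10 kb. On the right it ended with group 2, at 1.26 (0.692 to 2.31) and 1.10 (0.806 to 1.51). One bin of this stretch, from 119934001 to 119935000, was the only called bin of the window that touched no peak. It held 25 ChIP and 5 input reads, a ratio of 5.58 (2.10 to 18.7).

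**Figure D4:**
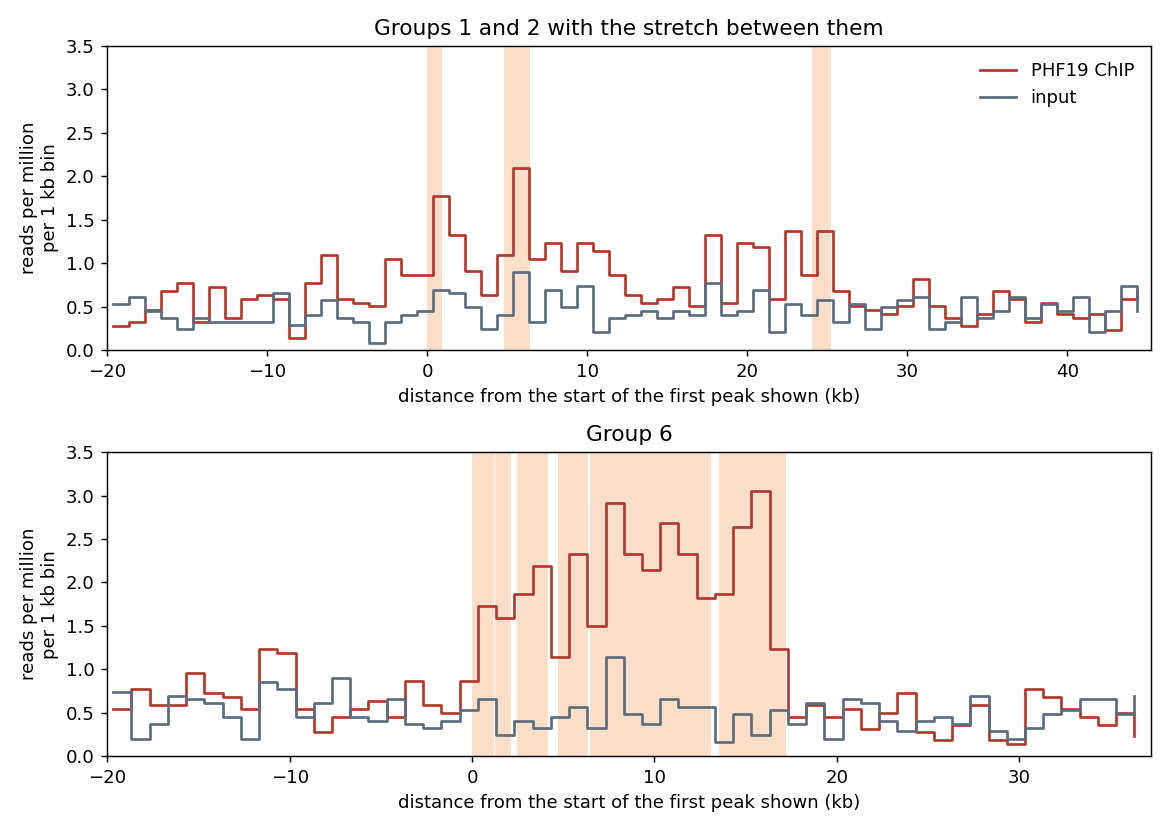
Distinct reads in 1 kb bins of the PHF19 ChIP library (red) and the input (grey), scaled to the library total as the axis states, over groups 1 and 2 (upper panel) and group 6 (lower panel), each with 20 kb on both sides, on the same vertical scale; shaded bands are the authors' peaks. In the upper panel the ChIP line lies above the input for most of 25.2 kb and few bands are marked, and in the lower panel it rises and falls at the ends of a block that the bands nearly fill.

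Groups 3 and 4 each held 1 peak that was wider and had more ChIP reads than the others. Within each of these groups the intervals of the peaks overlap. In group 3, peak 6 at 120063462 to 120066642 held 179 ChIP and 40 input reads, a ratio of 4.99 (3.53 to 7.22). It had the densest ChIP reads of the 17 peaks, 56.3 per kb. Peak 5 lay 45 bp to its left and had a ratio of 4.602 (2.08 to 11.5) from 33 and 8 reads. Peak 4, farther left, had 2.51 (1.36 to 4.84), and the 3.73 kb between peaks 4 and 5 stood at 1.39 (0.921 to 2.10). All 3 peaks together had a ratio of 4.32 (3.27 to 5.78), close to that of group 6. In the first 2 kb to the left of group 3, 40 ChIP and 12 input reads gave a ratio of 3.72 (1.91 to 7.79). The input was sparse there, with 6 reads per kb against 12.3 over the group from end to end. Beyond that stretch, at 2 to 10 kb, the ratio was 0.966 (0.693 to 1.34).

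In group 4, peak 7 at 120091417 to 120093658 held 86 ChIP and 20 input reads, a ratio of 4.80 (2.92 to 8.24). Peak 8, 1816 bp wide, held 70 and 30 reads, a ratio of 2.60 (1.67 to 4.14). Peak 9 held 30 and 12 reads, a ratio of 2.79 (1.39 to 5.98). Per length, ChIP reads were about equally dense in peaks 7, 8 and 9, with 38.4, 38.5 and 37.4 per kb. The input was less dense in peak 7, with 8.92 per kb against 16.5 in peak 8 and 15.0 in peak 9. The larger ratio of peak 7 thus lay in the input counts. The 5.92 kb between peaks 7 and 8 held 135 ChIP and 63 input reads, a ratio of 2.39 (1.76 to 3.28), which lies near those of peaks 8 and 9. Of 183 other gaps of 3 to 10 kb within groups on the autosomes, 22 had a higher ratio, and their median was 1.79. Group 4 resembled groups 1 and 2 in carrying ChIP reads between its peaks. Between groups 3 and 4, over 24.8 kb, the ratio was 1.20 (1.003 to 1.43), so the pair did not run together in the way that groups 1 and 2 did.

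Group 5 had the smallest pooled ratio of the groups, 2.35 (1.57 to 3.58). Its interval overlaps those of groups 1, 2, 3 and 4, but not that of group 6. Peak 10, at 120562923 to 120564400, held 51 ChIP and 26 input reads and had the smallest ratio of the window, 2.19 (1.34 to 3.66). Peak 11, at 120572670 to 120573431, was the narrowest, with 27 and 11 reads and a ratio of 2.74 (1.32 to 6.12). The 8.27 kb between them held 89 and 91 reads, a ratio of 1.09 (0.805 to 1.48), and 176 of the 183 other gaps of 3 to 10 kb had a higher one. Of the gaps in the other groups, that of group 1, at 1.93 (1.34 to 2.81), had 68 of the 183 above it, and that between peaks 4 and 5 of group 3 had 146. The intervals of the gaps in groups 1 and 5 overlap. The 3 smallest ratios of the window belonged to peak 10 and, at 2.51, to peaks 1 and 4.

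Outside the peaks the window was raised as well, by little. Bins of 1 kb that touch no peak held 15700 ChIP and 15942 input reads, a ratio of 1.10 (1.07 to 1.12), against 0.991 (0.990 to 0.991) on the autosomes outside the window. This was not particular to the window: such bins stood at 1.07 (1.05 to 1.09) in the adjoining stretch on the left and at 1.04 (1.02 to 1.06) in that on the right. Within 2 kb of a peak the ratio was 1.69 (1.49 to 1.91), against 1.33 (1.32 to 1.34) on the other autosomal bins at that distance. At 2 to 5 kb it was 1.37 (1.21 to 1.56), against 1.10 (1.09 to 1.11). Groups 1 and 2 made up much of this. With them and 10 kb on each side left out, a choice made with the values known, the ratios were 1.53 (1.32 to 1.79) and 1.19 (1.02 to 1.39). The second of these intervals includes the autosomal 1.10. Peaks are also more crowded here: 5 of the 6 groups hold at least 2 peaks, whereas 2044 of the 2502 groups in the genome hold 1. The part of this crowding in the difference from the autosomes was not tested. Beyond 100 kb from any peak the window still stood at 1.05 (1.01 to 1.08), against 0.981 (0.980 to 0.981) on the other autosomal bins and 0.986 (0.983 to 0.988) on the rest of chromosome 5.

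**Figure D5:**
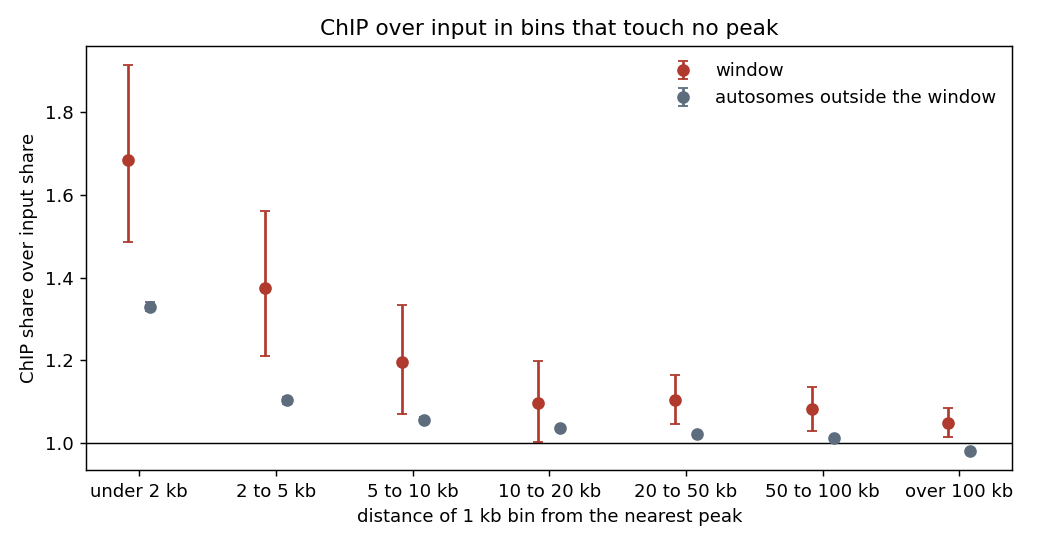
Ratio of ChIP share to input share in 1 kb bins that touch no peak, by distance from the nearest peak, in the window (red) and on the autosomes outside it (grey), with exact 95% intervals. The value of the window lies above that of the autosomes at each distance, from 1.69 against 1.33 within 2 kb to 1.05 against 0.981 beyond 100 kb. At 10 to 20 kb the interval of the window, 1.001 to 1.20, includes the autosomal value of 1.04.

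The long stretches without peaks had ratios near 1, and the intervals of all those given here overlap. The 109 kb between groups 2 and 3 had a ratio of 1.01 (0.936 to 1.10) and the 198 kb after group 6 had 1.03 (0.974 to 1.09). The 424 kb before group 1 stood at 1.11 (1.07 to 1.16) and the 460 kb between groups 4 and 5 at 1.08 (1.04 to 1.12). The highest was that of the 111 kb between groups 5 and 6, at 1.16 (1.08 to 1.25). The autosomes hold 791 other peak-free stretches of 100 to 500 kb between groups, with a median ratio of 1.03. Of these, 11 were above the stretch between groups 5 and 6, 137 above that between groups 4 and 5, and 540 above that between groups 2 and 3. Base composition and mappability were not measured here, and their part in such small differences was not tested.

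Of the 1399 bins of 1 kb tested in the window, 19 (1.36%) were called, against 0.157% of all bins in the genome; bins and peaks come from the same reads, so this is a description. They lay in groups 3, 4 and 6, with 2, 2 and 14 bins, besides the bin between groups 1 and 2. The peaks that called bins touched were peaks 6, 7 and 13 to 17. The same share over all peaks is not given here, so nothing is read from their number. Bins of 1 kb held medians of 11 ChIP and 12 input reads in the window. On chromosome 5 the medians, over bins that held reads, were 8 and 10. The part of this depth in the share of bins called was not tested. No bin that touches groups 1, 2 or 5 was called.

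Input density and strand balance were measured as well. Whether the input entered the choice of peaks is not stated, so its density in them may be fixed in part by that choice. Input density in the 17 peaks together was 1.30 times the median of chromosome 5. It was likewise 1.30 times in the other peaks of chromosome 5, and 1.45 times in all peaks outside the window. In single peaks of the window it ranged from 0.689 times in peak 13 to 1.77 times in peak 1. None of the 17 therefore lay in input raised to 2 times that median. On the plus strand lay 49.5% of the ChIP reads in the 17 peaks (46.8 to 52.1) and 52.4% of the input reads (47.5 to 57.3), against 50.6% and 50.6% in all other peaks. Counting reads once per position and strand removed 5.14% of the ChIP and 4.41% of the input reads in the 17 peaks.

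Sequence context could be given for few genes of the region. In the promoter table of RefSeq (GRCm38.p6, 250 bases before to 50 after each start), Rbm19 and Med13l had entries, with 23 and 61 CG dinucleotides, where the median of 27025 genes was 8 (the promoter with the most was taken where a gene had several). Tbx3, Tbx5 and Lhx5 had no entry. Of the T-box names 13 of 18 matched, with a median of 10, and of the LIM homeobox names 11 of 12 matched, with a median of 23. Neither median includes Tbx3, Tbx5 or Lhx5. These promoters were not placed on the mm8 reads.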

How the data were processed

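The authors deposited aligned reads of 1 PHF19 ChIP and 1 input library as 1 line per read with its position and strand. Per the submitters' processing notes Bowtie and the mm8 build were used; the sources used here do not give the version or how multiply matching reads were handled. The ChIP file held 23965625 and the input 26433784 lines of 42 bases. The deposited peaks carry the name of MACS, per the file headers; the sources do not give its settings. The score per peak is the authors' and only ranks peaks within the list.

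Reads were counted once per position and strand. Their 5′ ends were moved inwards by 54 bp, 0.5 of the lag between strands in the input (108 bp); the ChIP lag of 41 bp was close to the read length and gave no fragment length. Bins of 1 kb were tested at a minimum of 5 reads; calls needed an adjusted p of 0.05 and a ratio of 2. An input of 0 was replaced by 3 counts. Tests and intervals were run on simulated counts that held counting error only, which is the error they assume. Such a run cannot show how they hold when counts scatter more than that. The region, its members, the gene lists and the naming rule (groups of at least 2 peaks, the 5 widest peaks, the 5 largest and 3 smallest ratios among peaks with at least 20 ChIP reads, extremes of score, the 5 highest bins of the largest group, peaks at the edges, the longest empty stretch) were chosen with earlier results of these data known. Alternatives covered duplicates, shift, scaling, thresholds, bins, gaps and peak set. The work used matplotlib 3.10.9, scipy 1.17.1, pandas 2.3.3, numpy 2.4.6 and Python 3.11.15.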

Additional observations from a re-analysis of the deposited data

How the results depend on the processing

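The ratio of the 17 peaks together, 3.80, moved beyond its counting interval when the peak set changed: it was 4.70 in the 4 peaks that are among the 862 with the highest scores, 4.39 in group 6 alone and 3.29 without group 6. The settings with and without group 6 were chosen after seeing the data. Keeping duplicates, leaving out the shift, scaling by reads outside peaks and widening the peaks by 500 bp left it between 3.45 and 3.88. At a ratio of 4, 6 of the 17 peaks (35.3%) were called, against 40.6% of all peaks. The ratio between peaks of the same group, 1.75, lay between 1.68 and 1.94 under its alternatives, and that of the window outside peaks, 1.10, between 1.08 and 1.11. Called bins of 1 kb numbered 17 to 20 and, with bins of 500 bp, 15. The 6 groups became 8 with gaps of at most 5 kb and 5 with gaps of at most 20 kb. No paired analysis was possible because each group is 1 library. Depth limits single bins and narrow peaks most, where fewer than 10 input reads stand behind a ratio.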
